A study of Mus musculus with 10 samples.

Results

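The autophagy machinery genes are the genes whose products build, load and deliver the autophagosome, and 40 of them were listed by name and by role. A probe set with a single gene symbol in the array annotation was found for 39 of the 40, out of 19933 genes tested in all, and Optn was not analysed here. Livers of 5 Nr1d1-/- (KO) male mice and 5 wild-type (WT) male mice were compared, with 1 mouse per Affymetrix Mouse Gene 1.0 ST array. Nr1d1 encodes Rev-erb alpha, a heme-binding nuclear receptor that represses transcription as part of the circadian clock. Both groups were on a C57Bl/6 background, were 10 to 12 weeks old, ate normal chow under a cycle with 12 h of light a day, and were sampled at ZT10, 10 h after the lights came on. The KO line lacked Nr1d1 in the whole animal and had been backcrossed for at least 7 generations, while the WT mice were purchased. What the genotype does and what the source of the animals does cannot be told apart. A single time of day was sampled, so a shift in the phase of a rhythmic gene and a change in its mean level cannot be told apart either.

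Autophagy is the process by which a cell encloses part of its own cytoplasm in a double membrane and degrades it in the lysosome. The ULK kinase complex starts it, a lipid kinase complex around Beclin 1 marks the membrane, and a pair of ubiquitin-like conjugation systems attaches LC3 and GABARAP proteins to the growing membrane, where receptors bring cargo. In mouse liver autophagy is known to vary over the day and to release amino acids and lipids during fasting. In mouse skeletal muscle, loss of Rev-erb alpha is known to raise the expression of several autophagy genes. The comparison asks whether the same set of transcripts differs in liver.

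At ZT10 the transcripts of the autophagy machinery differed little between KO and WT liver. Of the 39 genes, 1 was higher in KO (Atg10, against 3.17% of all genes higher) and 1 was lower (Uvrag, against 2.44% of all genes lower), at an adjusted p under 0.05 in limma, and 37 did not pass the test. This is 5.13% of the members, against 5.61% of all genes tested, or 8.23% of the 12458 genes that read above an olfactory receptor level on every array. That level, the 95th percentile of 1027 olfactory receptor genes on each array, stands in for genes that liver is not known to express, since the table holds no detection calls. All 39 members lay above it on all 10 arrays. The limma differences (KO minus WT, log2 intensity) were positive in 19 members and negative in 20, with a median of -0.005, against 0.008 over all genes. The median size of a member's difference was 0.075, against 0.058 over all genes, including those not above the olfactory receptor level. The largest among members was 0.30. The 95% interval of the difference lay within 1.5-fold in either direction for 39 of 39 members, and within 1.25-fold for 34. Most genes did the same: 19084 of all 19933 lay within 1.5-fold and 16529 within 1.25-fold. These intervals are per gene and are not adjusted for the number of genes.

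**Figure D1:**
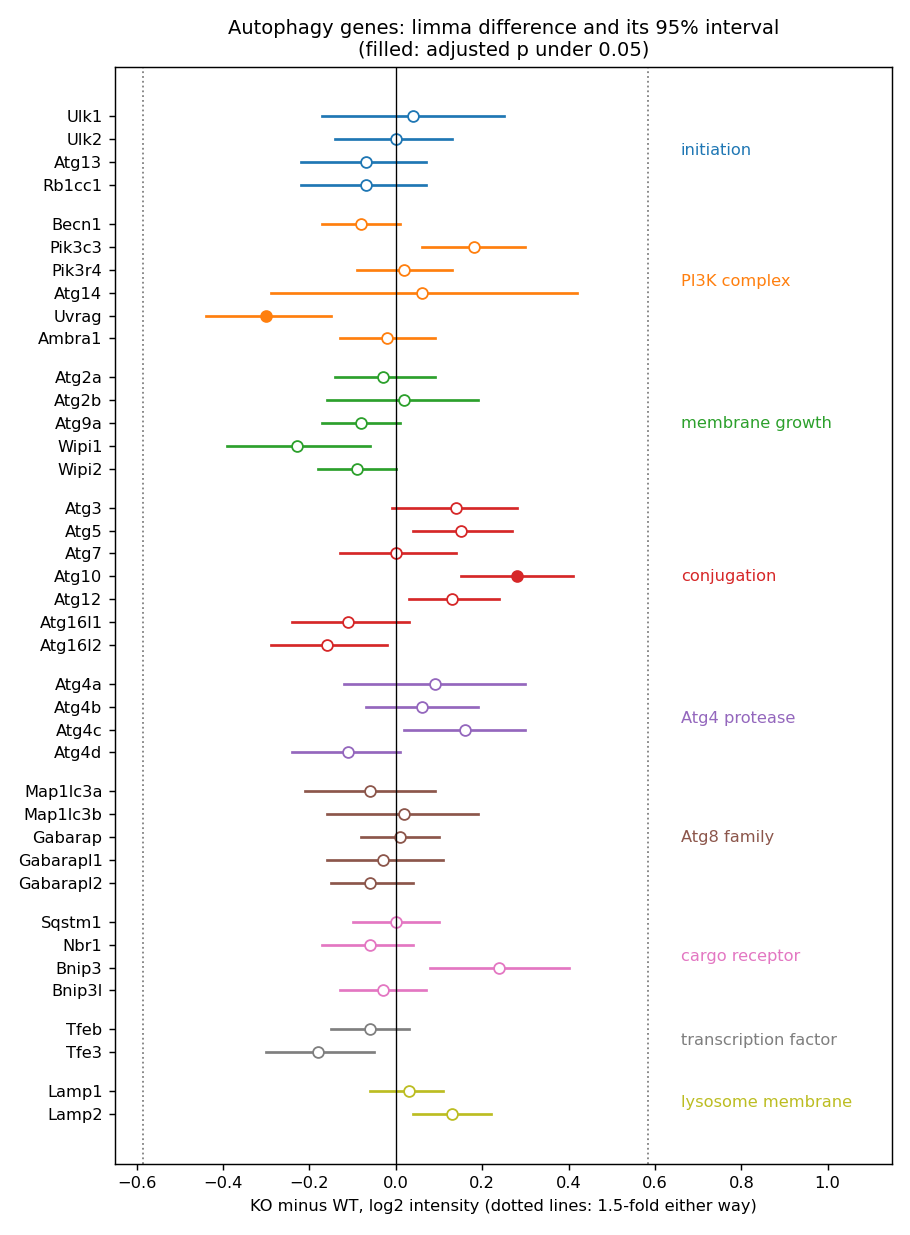
Difference between KO and WT livers for each of the 39 autophagy machinery genes (KO minus WT, log2 intensity, horizontal axis), with the 95% interval of the limma fit as a bar, grouped and coloured by role. Filled points mark an adjusted p under 0.05, which were Uvrag at -0.30 and Atg10 at 0.28, and no interval reached the dotted lines at 1.5-fold.

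The promoter windows of the 2 genes that passed the test, Uvrag and Atg10, are shown first, followed by those of 2 members with E-boxes, Atg3 and Lamp1. Each window runs from 250 bases before to 50 bases after a gene start of RefSeq (build GRCm38.p6), 5′ to 3′ on the gene's strand. They lie at chr7:99141095-99141394 (minus strand), chr13:91223938-91224237 (minus), chr16:45158579-45158878 (plus) and chr8:13158911-13159210 (plus). Capitals mark the letters searched for, on both strands: the E-box core CACGTG, the extended E-box TCACGTGA of the CLEAR element bound by TFEB, AGGTCA, the core letters of Rev-erb and ROR sites, and the D-box TTATGTAA. TCACGTGA contains CACGTG.
Uvrag: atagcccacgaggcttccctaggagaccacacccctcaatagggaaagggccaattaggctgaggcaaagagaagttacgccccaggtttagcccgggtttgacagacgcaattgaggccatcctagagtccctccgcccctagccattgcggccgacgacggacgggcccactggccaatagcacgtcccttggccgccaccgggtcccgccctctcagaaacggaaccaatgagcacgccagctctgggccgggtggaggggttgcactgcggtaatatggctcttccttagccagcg
Atg10: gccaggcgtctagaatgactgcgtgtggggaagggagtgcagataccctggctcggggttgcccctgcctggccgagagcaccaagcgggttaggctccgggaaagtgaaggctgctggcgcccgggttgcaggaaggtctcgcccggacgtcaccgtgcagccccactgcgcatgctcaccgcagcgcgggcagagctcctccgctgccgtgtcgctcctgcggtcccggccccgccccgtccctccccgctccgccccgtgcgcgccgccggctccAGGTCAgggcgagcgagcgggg
Atg3: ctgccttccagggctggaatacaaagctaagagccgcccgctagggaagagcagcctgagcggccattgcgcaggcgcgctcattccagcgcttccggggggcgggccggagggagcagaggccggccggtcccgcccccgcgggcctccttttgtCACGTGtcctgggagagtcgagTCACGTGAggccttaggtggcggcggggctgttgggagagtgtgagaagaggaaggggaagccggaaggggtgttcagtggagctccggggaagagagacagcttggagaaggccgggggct
Lamp1: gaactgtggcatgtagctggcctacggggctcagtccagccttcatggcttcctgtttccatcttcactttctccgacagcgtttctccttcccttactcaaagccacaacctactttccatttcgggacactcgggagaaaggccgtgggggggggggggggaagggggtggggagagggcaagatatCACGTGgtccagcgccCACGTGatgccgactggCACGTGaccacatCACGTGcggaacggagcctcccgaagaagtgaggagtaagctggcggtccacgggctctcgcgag

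The Uvrag window held none of these letters. In the Atg10 window AGGTCA began 28 bases after the start. The Atg3 window held TCACGTGA and a separate CACGTG, and the Lamp1 window held CACGTG at 4 places. A RefSeq window was found for 32 of the 39 members, with 38 windows in all. CACGTG stood in 15.8% of these windows, against 7.15% of all 32851 windows of the same length, and the genes were Atg3, Atg5, Atg7, Atg14, Bnip3 and Lamp1. AGGTCA stood in 15.8% of the members' windows, against 16.3% of all windows, in Atg10, Atg4a, Gabarapl2, Nbr1, Pik3r4 and Ulk2. TCACGTGA stood in 2.63% of the members' windows, against 0.974% of all. Neither TAGGTCA, a longer form of the Rev-erb letters, nor TTATGTAA was found in a member's window, while 2.61% and 0.938% of all windows held them. A match describes letters, not binding, and Atg10 was the only gene among these matches that passed the test.

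As a check of the labels, the single Nr1d1 probe set read 9.92 ± 0.45 in KO and 9.78 ± 0.16 in WT livers (SD, n = 5 each, as log2 intensity), with a difference of 0.14 (limma adjusted p = 0.803). No source used here says whether these probes lie in the stretch that was deleted, so the value checks nothing about the genotype. Arntl, a clock activator that Rev-erb alpha is known to repress, read between 9.12 and 9.82 in KO and between 6.93 and 7.54 in WT livers, a difference of 2.13 (limma adjusted p = 3.22e-06). All 7 measured hepatocyte markers lay above the olfactory receptor level on every array, and none passed the test in limma or reached an unadjusted p under 0.05. Of 46 measured markers of other cell types, 1 passed the test: the cholangiocyte marker Sox9 was higher in KO by 0.62 (limma adjusted p = 0.0129). That is 2.17%, against 5.61% of all genes, and 5 of the 46 (10.9%) reached an unadjusted p under 0.05, against 17.4% of all genes. Besides Sox9 these were the sinusoidal endothelial markers Stab2 and Clec4g at 0.20 and 0.21, the stellate cell marker Lrat at -0.59, and Cd79a, a lymphocyte marker below the olfactory receptor level on every array. Lrat passed lower in KO without KO replicate 1 (-0.77, limma adjusted p = 0.0287), Stab2 passed after repeated quantile normalization (0.21, limma adjusted p = 0.0352), and Sox9 no longer passed once the 3 arrays of widest interquartile range were left out (0.47, limma adjusted p = 0.0666). The summed intensity of the 4 measured cholangiocyte markers was 710 to 913 in KO and 592 to 691 in WT livers. Sox9 alone of the 4 had a positive difference: Krt19, Krt7 and Epcam differed by -0.02, -0.11 and -0.01, and Epcam did not lie above the olfactory receptor level on every array. The part of these markers in the results below was not tested. In whole liver, fewer cells of a type and less RNA per cell cannot be told apart. The arrays of KO replicates 4 and 5 and WT replicate 1 had the widest interquartile ranges, 2.96, 2.99 and 2.98 on the log2 scale, against 2.80 to 2.94 on the other 7.

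The ULK complex, which receives the nutrient signal, showed no gene that passed the test in limma, and none of its 4 genes reached an unadjusted p under 0.05. Ulk1, the main kinase of the complex, read 10.27, 10.01, 10.30, 10.17 and 10.53 in KO livers, against 10.01, 10.09, 10.23, 10.42 and 10.32 in WT livers (log2 intensity). The groups overlapped over most of their range, and the difference was 0.04 (95% interval -0.17 to 0.25, limma adjusted p = 0.906). Its paralog Ulk2 read 10.25 to 10.59 in KO and 10.45 to 10.49 in WT livers, so the KO range enclosed the WT range. Rb1cc1, which encodes the scaffold FIP200, had the largest difference of this role, level with Atg13. It read 9.46, 9.37, 9.55, 9.58 and 9.67 in KO livers, against 9.60, 9.53, 9.51, 9.74 and 9.63 in WT livers, and the overlapping groups differed by -0.07 (SE 0.065, limma adjusted p = 0.669). Atg13, the adaptor that links the kinases to the scaffold, also differed by -0.07 (limma adjusted p = 0.682).

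In the lipid kinase complex, Uvrag fell and the other 5 genes did not pass the test. An unadjusted p under 0.05 was reached by 2 of the 6 (33.3%, Uvrag and Pik3c3), against 17.4% of all genes and 24.1% of the genes above the olfactory receptor level. UVRAG is a Beclin 1 partner known for autophagosome maturation and endosome traffic. Its transcript read 9.47, 9.45, 9.37, 9.53 and 9.42 in KO livers, against 9.67, 9.57, 9.71, 9.86 and 9.93 in WT livers (log2 intensity). Every KO liver lay below every WT liver, and the KO livers lay closer together, with an SD of 0.059 in KO and 0.15 in WT livers (n = 5 each). The difference was -0.30 with SE 0.067, which is 0.813-fold (limma adjusted p = 0.0215). It lost the call without KO replicate 3 (-0.28, adjusted p = 0.0553) and without the 3 arrays of widest interquartile range (-0.33, adjusted p = 0.089).

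Pik3c3, the catalytic lipid kinase VPS34, read 8.74, 8.81, 8.91, 8.94 and 8.92 in KO livers, against 8.71, 8.69, 8.57, 8.74 and 8.71 in WT livers. The lowest KO liver met the highest WT liver, and the difference of 0.18 (SE 0.053) did not pass at a limma adjusted p of 0.0749. It passed after repeated quantile normalization (adjusted p = 0.0294) and without KO replicate 1 (adjusted p = 0.0415). Atg14, which directs the kinase to the forming autophagosome, had the widest spread, from 8.73 to 9.70 in KO livers and from 8.78 to 9.28 in WT livers. KO replicate 5 stood above all other livers, and the difference was 0.06 with a 95% interval from -0.29 to 0.42, the widest of any member. Becn1, the scaffold Beclin 1, differed by -0.08 (95% interval -0.17 to 0.01, limma adjusted p = 0.404). Pik3r4, the regulatory subunit VPS15, differed by 0.02 and Ambra1, a Beclin 1 activator, by -0.02.

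Among the 5 genes of membrane supply and growth none passed the test in limma, 1 reached an unadjusted p under 0.05 (Wipi1), and 4 had negative differences. The share with such a p was 17.4% over all genes and 24.1% over those above the olfactory receptor level. Wipi1, which binds the lipid made by VPS34, read 8.49, 8.20, 8.61, 8.47 and 8.58 in KO livers, against 8.73, 8.77, 8.55, 8.73 and 8.71 in WT livers. WT replicate 3 lay within the KO range, and the difference was -0.23 (SE 0.076, limma adjusted p = 0.112). The related Wipi2 read 9.82 to 9.93 in KO and 9.95 to 10.04 in WT livers, and the lipid scramblase Atg9a read 9.74 to 9.84 in KO and 9.85 to 9.91 in WT livers. In both genes every KO liver lay below every WT liver, by a narrow margin. Groups thus did not overlap in 40.0% of this role, against 7.00% of all genes and 10.0% of those above the olfactory receptor level. The Wipi2 and Atg9a differences of -0.09 and -0.08 did not pass the test (limma adjusted p = 0.312 and 0.337). The lipid transfer genes Atg2a and Atg2b differed by -0.03 and 0.02.

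The conjugation genes held the one rise, Atg10, and 4 of the 7 (57.1%) reached an unadjusted p under 0.05 (Atg5, Atg10, Atg12 and Atg16l2), against 17.4% of all genes and 24.1% of those above the olfactory receptor level. ATG10 is the E2-like enzyme that joins ATG12 to ATG5. Its transcript read 8.94, 9.06, 9.03, 9.18 and 9.12 in KO livers, against 8.87, 8.72, 8.66, 8.82 and 8.87 in WT livers (log2 intensity). The lowest KO liver lay above the highest WT liver, with a difference of 0.28 (SE 0.059, limma adjusted p = 0.0158), or 1.21-fold. The call held without any single array (adjusted p from 0.0121 to 0.0433). It was lost after centring each array on its median (0.27, adjusted p = 0.0541) and without the 3 arrays of widest interquartile range (0.24, adjusted p = 0.0953).

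The transcripts of the 2 proteins that ATG10 joins had positive differences that did not pass. Atg5, the acceptor, read 9.52, 9.47, 9.46, 9.57 and 9.50 in KO livers, against 9.40, 9.30, 9.21, 9.41 and 9.43 in WT livers. Its groups did not overlap, and the difference was 0.15 (SE 0.052, limma adjusted p = 0.116). It passed after repeated quantile normalization (adjusted p = 0.0476). Atg12, the ubiquitin-like protein, read 9.32, 9.21, 9.33, 9.28 and 9.42 in KO livers, against 9.22, 9.20, 9.17, 9.14 and 9.16 in WT livers. The groups overlapped by 1 liver, with a difference of 0.13 (SE 0.046, limma adjusted p = 0.128). Atg3, the E2-like enzyme of the LC3 branch, read 10.98, 11.06, 10.90, 11.07 and 11.21 in KO livers, against 10.97, 10.75, 10.89, 10.90 and 11.03 in WT livers. These groups overlapped, at a difference of 0.14 (SE 0.067, limma adjusted p = 0.319).

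Atg7, the E1-like enzyme that serves both branches, differed by 0.00 (95% interval -0.13 to 0.14, limma adjusted p = 0.992). Atg16l2 read 7.82, 7.79, 7.80, 7.62 and 7.76 in KO livers, against 7.73, 7.88, 8.0, 8.01 and 7.95 in WT livers. WT replicate 1 lay among the KO livers, and the difference was -0.16 (SE 0.062, limma adjusted p = 0.2). Its paralog Atg16l1, the partner of the ATG12-ATG5 conjugate, differed by -0.11 (limma adjusted p = 0.447).

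**Figure D2:**
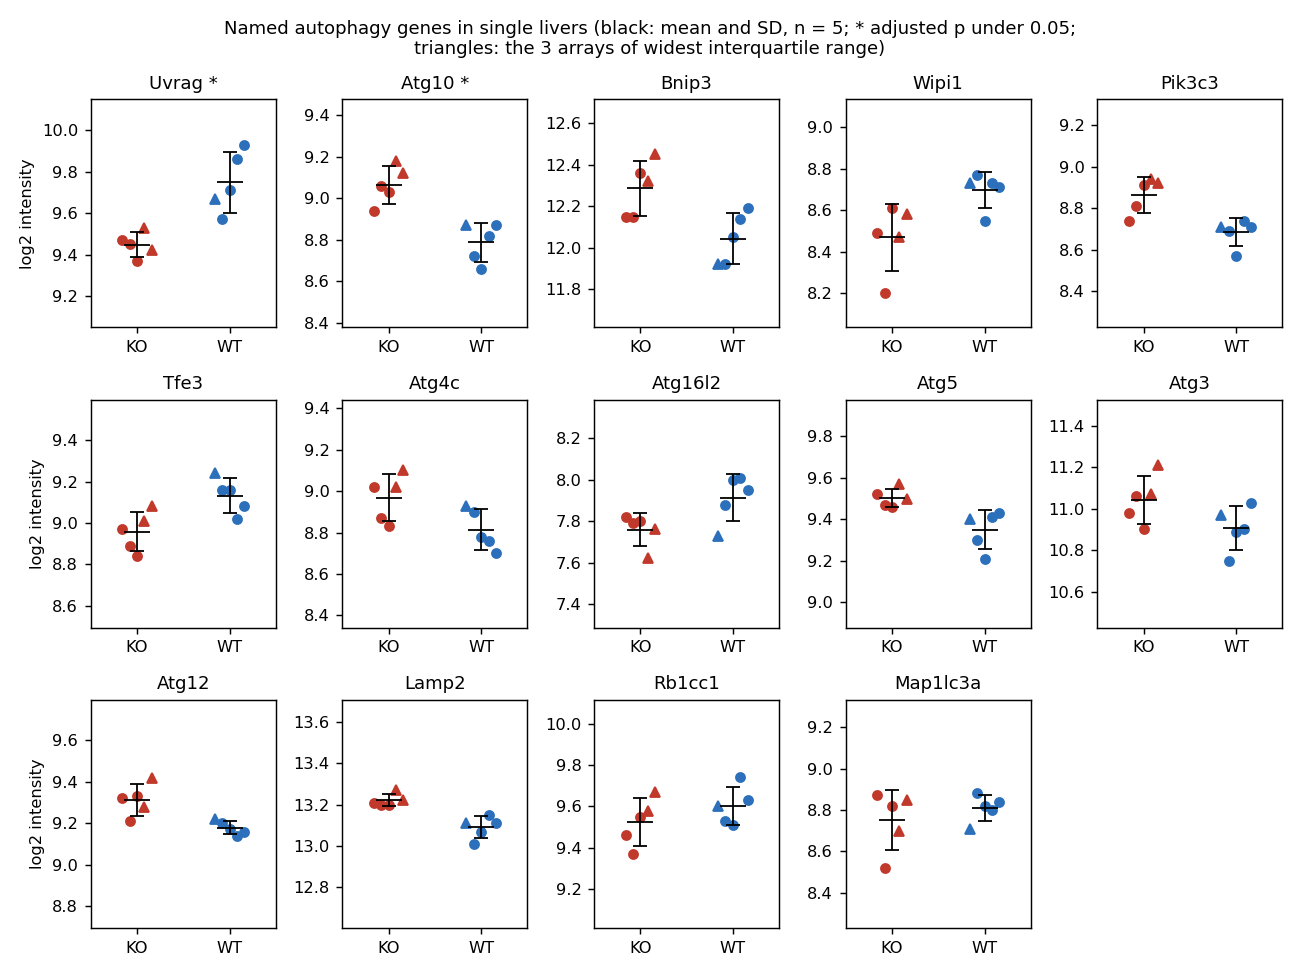
Log2 intensity of 14 named autophagy genes in single KO and WT livers (1 point per mouse, each panel spanning 1.1 log2 units), with the mean and SD of 5 livers in black and triangles for the 3 arrays of widest interquartile range. The groups do not overlap for Uvrag, Atg10, Atg5 and Lamp2, and in the other panels they overlap or meet.

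The Atg4 proteases, which trim LC3 and GABARAP proteins before conjugation and release them afterwards, did not pass the test in limma, and 1 of 4 reached an unadjusted p under 0.05 (Atg4c). Such a p was reached by 17.4% of all genes and 24.1% of those above the olfactory receptor level, so 1 of 4 does not stand out. Atg4c read 9.02, 8.87, 8.83, 9.02 and 9.10 in KO livers, against 8.93, 8.90, 8.78, 8.76 and 8.70 in WT livers. The groups overlapped, at a difference of 0.16 (SE 0.065, limma adjusted p = 0.221). Atg4a, Atg4b and Atg4d differed by 0.09, 0.06 and -0.11. Atg4a has a second probe set on the array, which differed by 0.07, and no source used here says which copy of the gene each reads.

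The LC3 and GABARAP genes, whose lipid-linked products line the autophagosome, showed the narrowest range of differences of any role, between -0.06 and 0.02. None of the 5 passed in limma or reached an unadjusted p under 0.05. Map1lc3a, with the largest in size, read 8.87, 8.52, 8.82, 8.70 and 8.85 in KO livers, against 8.71, 8.88, 8.82, 8.80 and 8.84 in WT livers, with overlapping groups (limma adjusted p = 0.772). Map1lc3b, the usual marker of autophagosomes, read 11.10, 10.99, 11.43, 11.16 and 11.42 in KO livers, against 11.13, 11.20, 11.23, 11.25 and 11.20 in WT livers. KO livers lay on both sides of the WT livers, and the difference was 0.02 (95% interval -0.16 to 0.19, limma adjusted p = 0.961). Gabarap differed by 0.01 (95% interval -0.08 to 0.10), Gabarapl1 by -0.03 and Gabarapl2 by -0.06. Another probe set for Gabarapl2 lay below the olfactory receptor level on all 10 arrays, and no source used here says which copy of the gene each probe set reads. The same holds for the second probe set of Map1lc3b, which differed by 0.07.

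Among the cargo receptors, Bnip3 had the largest difference. None of the 4 measured genes passed in limma, and Bnip3 alone reached an unadjusted p under 0.05. Such a p was reached by 17.4% of all genes and 24.1% of those above the olfactory receptor level. BNIP3 marks mitochondria for autophagy and is known as a target of hypoxia and fasting signals. It read 12.15, 12.15, 12.36, 12.32 and 12.45 in KO livers, against 11.92, 11.92, 12.05, 12.14 and 12.19 in WT livers. The lowest KO livers lay below the highest WT liver, at a difference of 0.24 (SE 0.075, limma adjusted p = 0.0919). In the fit of every probe set the second Bnip3 probe set gave 0.31 (SE 0.083, limma adjusted p = 0.0532), against an adjusted p of 0.0957 for the first there. The copy that each Bnip3 or Bnip3l probe set reads is likewise unknown here. Without the 3 arrays of widest interquartile range the difference was 0.14 (adjusted p = 0.418). Its paralog Bnip3l, also a receptor for mitochondria, differed by -0.03, and its second probe set by the same amount. Sqstm1, which encodes the ubiquitin receptor p62, read 12.27, 12.21, 12.24, 12.29 and 12.37 in KO livers, against 12.27, 12.22, 12.26, 12.33 and 12.30 in WT livers. These values all but coincided, with a difference of 0.00 (95% interval -0.10 to 0.10, limma adjusted p = 0.993). Nbr1, a related receptor, differed by -0.06.

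The transcription factors of the lysosome and autophagy genes had negative differences that did not pass the test in limma, and 1 of the 2 reached an unadjusted p under 0.05 (Tfe3). The share with such a p was 17.4% over all genes and 24.1% over those above the olfactory receptor level. With 2 genes a share says little. Tfe3 read 8.97, 8.89, 8.84, 9.01 and 9.08 in KO livers, against 9.24, 9.16, 9.16, 9.02 and 9.08 in WT livers, overlapping groups with a difference of -0.18 (SE 0.058, limma adjusted p = 0.115). Tfeb differed by -0.06 (SE 0.040, limma adjusted p = 0.553). Of the lysosome membrane genes, none passed in limma and 1 of 2 reached an unadjusted p under 0.05 (Lamp2), against the same 17.4% and 24.1%. Lamp2, needed for fusion with the autophagosome and for chaperone-mediated autophagy, read 13.21, 13.20, 13.20, 13.27 and 13.22 in KO livers, against 13.11, 13.01, 13.07, 13.15 and 13.11 in WT livers. All KO livers lay above all WT livers, yet the difference of 0.13 (SE 0.042) did not pass (limma adjusted p = 0.107). It passed with 32 added to each intensity (adjusted p = 0.0397) and with a variance trend (adjusted p = 0.0211). Lamp1, with the 4 E-box cores shown above, differed by 0.03 (95% interval -0.06 to 0.11).

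KO and WT livers did not overlap in 6 members, 3 of them higher in KO (Atg10, Atg5, Lamp2) and 3 lower (Uvrag, Atg9a, Wipi2). This is 15.4% of the members, against 7.00% of all genes and 10.0% of the genes above the olfactory receptor level. An unadjusted p under 0.05 was reached by 11 members, or 28.2%, against 17.4% of all genes and 24.1% of the genes above that level. The SD was larger in KO than in WT livers for 29 of 39 members (74.4%), against 51.3% of all genes. The SD share among genes above the olfactory receptor level, where all members lie, was not computed. Members share the same mice, so these counts are descriptions and were not tested.

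**Figure D3:**
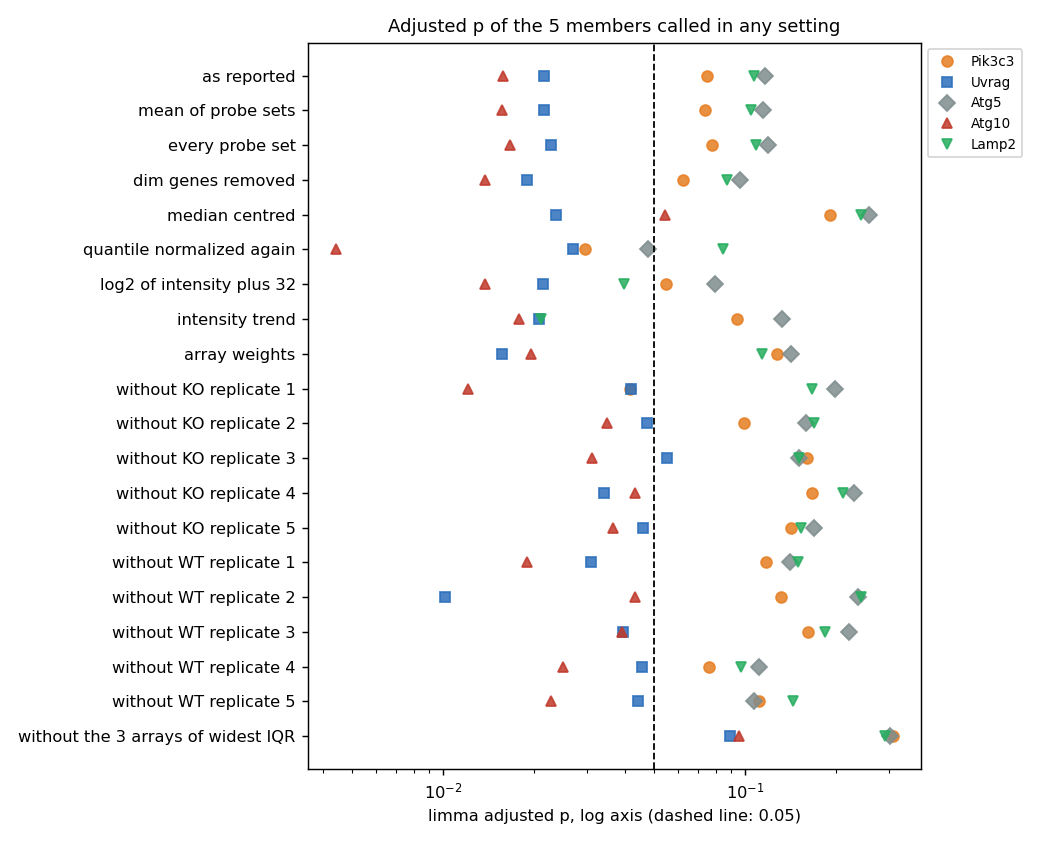
Limma adjusted p (horizontal, log axis) of the 5 members that passed 0.05 in any setting, with each setting on its own line and the dashed line at 0.05. Uvrag and Atg10 lie left of the line in 17 of 19 alternatives each, Pik3c3 and Lamp2 in 2 and Atg5 in 1.

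Genes around the core machinery were described from 7 related lists of 140 genes, of which 133 were measured. Of these, 3 rose and 8 fell, together 8.27%, against 5.61% of all genes and 8.23% of those above the olfactory receptor level. The median difference was -0.002. After median centring 3 rose and 5 fell. With single arrays left out, 7 genes passed without KO replicate 2, 3 or 4 or WT replicate 2 or 3, and without the 3 arrays of widest interquartile range 4 passed.

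Of 19 accessory autophagy factors, Bcl2l1 rose and 18 did not pass. The called share was 5.26%, against 5.61% of all genes and 8.23% of those above the olfactory receptor level. Bcl2l1 encodes BCL-XL, which binds Beclin 1 and restrains cell death. It averaged 9.17 ± 0.11 in KO and 8.71 ± 0.080 in WT livers (SD, n = 5 each, as log2 intensity), with a difference of 0.46 (SE 0.062, limma adjusted p = 0.000829). The next largest were Tmem41b, a lipid scramblase, at -0.39 (limma adjusted p = 0.0611) and Wdr45b, a WIPI protein, at -0.36 (limma adjusted p = 0.0931). Both passed without WT replicate 4 (adjusted p = 0.0276 and 0.0415 in limma), and Tmem41b also with an intensity trend (limma adjusted p = 0.0493). Of 14 other selective autophagy genes, Retreg1 rose, and 13 did not pass, a called share of 7.14% against the same 5.61% and 8.23%. RETREG1, also called FAM134B, is a receptor for autophagy of the endoplasmic reticulum. It averaged 10.62 ± 0.28 in KO and 10.02 ± 0.094 in WT livers, a difference of 0.60 (SE 0.11, limma adjusted p = 0.00692). Calcoco1, another receptor of the endoplasmic reticulum, stood at 0.25 and the glycogen receptor Stbd1 at -0.25. Bcl2l1 and Retreg1 kept the call in 19 of 19 alternatives.

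Lysosomal hydrolases went both ways, with 1 of 23 higher and 3 lower. Together this is 17.4%, against 5.61% of all genes and 8.23% of those above the olfactory receptor level. Lipa, the acid lipase that breaks down cholesteryl esters and triglycerides, rose by 0.40 (SE 0.091, limma adjusted p = 0.0222). The sulfatase Galns fell by 0.35 (SE 0.050, limma adjusted p = 0.00129), the glucuronidase Gusb fell by 0.24 and the mannosidase Manba fell by 0.19. The cathepsins Ctsl and Ctsb stood at 0.19 (limma adjusted p = 0.0614) and 0.15 (limma adjusted p = 0.0526) without passing. KO livers all lay above the WT livers in Ctsl, Ctsb and Lipa, and all below in Galns, Gusb and Manba. These 6 of 23 are 26.1%, against 7.00% of all genes and 10.0% of those above the olfactory receptor level. Ctsl passed in 3 of 19 alternatives (offset of 32, intensity trend and without WT replicate 4, lowest adjusted p 0.0258) and Ctsb in 4 (dim genes removed, offset of 32, intensity trend and array weights, lowest adjusted p 0.0139). Lipa lost the call in 5 of 19 alternatives (highest adjusted p 0.145), in 4 of them through the loss of a single array (KO replicate 2, 3 or 4 or WT replicate 3), and Manba lost it in 8 (up to 0.166), 6 of them without KO replicate 1, 2 or 4 or WT replicate 1, 2 or 5. Gusb lost it without the 3 arrays of widest interquartile range (adjusted p = 0.0909). Of 21 genes of the lysosome membrane and proton pump, Atp6v1g1, a pump subunit, fell by 0.29 (SE 0.063, limma adjusted p = 0.0181). The other 20 did not pass, with Scarb2 at -0.18 and Atp6v0b at -0.17. The called share was 4.76%, against the same 5.61% and 8.23%. Atp6v1g1 lost the call without those 3 arrays (adjusted p = 0.0853), and Atp6v0b passed without WT replicate 4 (-0.21, adjusted p = 0.0388).

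Upstream of ULK1, 3 of 32 nutrient-sensing genes fell and none rose, which is 9.38%, against 5.61% of all genes and 8.23% of those above the olfactory receptor level. Prkaa2, the alpha-2 catalytic subunit of the energy sensor AMPK, averaged 10.99 ± 0.11 in KO and 11.31 ± 0.12 in WT livers, a difference of -0.32 (SE 0.068, limma adjusted p = 0.015). Prkab1, an AMPK scaffold subunit, fell by 0.22 (limma adjusted p = 0.0431) and Deptor, an inhibitor of mTOR, fell by 0.20 (limma adjusted p = 0.0314). Ddit4, which restrains mTORC1, stood at 0.46 (limma adjusted p = 0.154) and Sesn3 at 0.21. Prkab1 lost the call in 11 of 19 alternatives and Deptor in 10, among them every single array left out but WT replicate 5 for Prkab1, and but KO replicate 5 and WT replicate 4 for Deptor. Prkaa2 lost it without the 3 arrays of widest interquartile range (adjusted p = 0.119). Of 14 transcriptional regulators, Atf4 fell by 0.24 (limma adjusted p = 0.0269), a called share of 7.14% against the same 5.61% and 8.23%. The Atf4 call was lost in 7 of 19 alternatives, 6 of them without KO or WT replicate 2, 3 or 5. Ddit3 and Ppara stood at -0.22 and 0.22. None of 10 genes of the p62 and NRF2 axis passed in limma. An unadjusted p under 0.05 was reached by 3 of them (30.0%), against 17.4% of all genes and 24.1% of those above the olfactory receptor level. The 3 were Txnrd1 at -0.15, Gclc at 0.20 and Gsr at -0.12. Nqo1, a quinone reductase, stood at 0.23, and at 0.12 without WT replicate 2. Hmox1, which encodes heme oxygenase 1, stood at -0.20. KO replicate 5 read 9.40 for Hmox1, against 8.11 to 8.51 in the other KO livers and 8.63 to 8.85 in WT livers. Without that array Hmox1 passed lower in KO (-0.42, limma adjusted p = 0.0253), as it did without the 3 arrays of widest interquartile range (-0.48, limma adjusted p = 0.0445), and without KO replicate 1 or 3 it stood at -0.10.

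**Figure D4:**
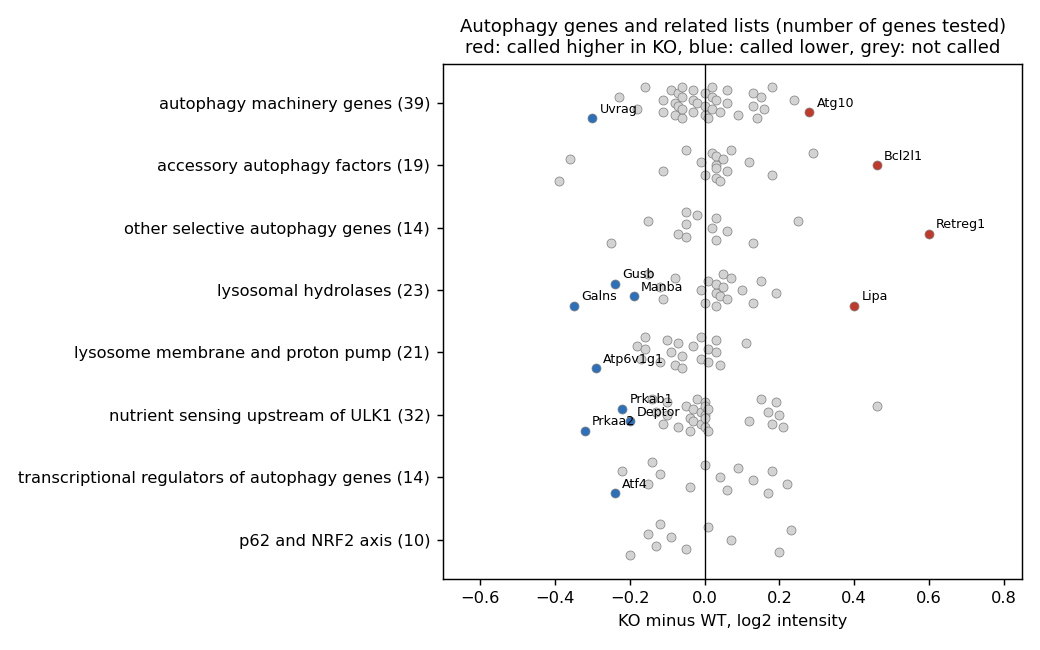
Difference between KO and WT livers (KO minus WT, log2 intensity, horizontal axis) of each measured gene in the autophagy machinery and in 7 related lists, 1 point per gene, with vertical scatter only to separate points. Red points passed the test higher in KO and blue points lower, and the passing genes are named, from Retreg1 at 0.60 to Galns at -0.35.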

How the data were processed

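The authors deposited 1 table of normalized intensities, on a linear scale from 8.93 to 18280, for 27541 probe sets on 10 arrays. Per the submitters' processing notes, which give no versions, RMA and Partek were used, and no source used here says whether rows were filtered. The log2 of the deposited intensities was taken. Array medians lay between 155.8 and 165, and precision is limited by the number of arrays. Names came from the array annotation, in which 21631 probe sets had 1 symbol. The probe set of highest mean over all arrays stood for each gene, which left 19933 genes.

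The genotypes were compared with limma (version 3.58.1, R 4.3.3; lmFit, eBayes, two-sided, no covariates) over all genes, with Benjamini-Hochberg adjustment over all of them. Each difference is the KO mean minus the WT mean of log2 values, with the SE of the fit. The p-values weigh each difference against the spread between single mice, with each gene's variance drawn by eBayes toward that of all genes. When 19933 genes were simulated from the observed means and spreads, 36% of genes changed by 0.25 and 86% of genes changed by 0.5 were recovered, with 4.79% of calls false. Far fewer genes were changed in the simulation than the 1119 called in the data, which makes its adjusted cut-off stricter. Changes of the size seen here can be missed, but the simulation cannot say how many were missed in these data. The members and lists were chosen with earlier results of these data known, so no p is adjusted over a list alone. The level of olfactory receptor genes as a second background was added with the results in view. Every member is named. Values of every mouse are given for members that passed, for the 10 others with the largest differences and for the largest of each remaining role, besides Ulk1, Map1lc3b and Sqstm1, which were chosen after their values were seen. Of each related list, every gene that passed and the 2 largest of the others are named. Txnrd1, Gclc and Gsr are named besides, as the genes behind a count. The alternatives were other choices of probe set, a filter on the dimmest 25% of genes, 2 normalizations, an added intensity of 32, a variance trend, array weights, each array left out and the 3 arrays of widest interquartile range left out.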

Additional observations from a re-analysis of the deposited data

Results flagged for a closer look

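Single livers stood far from the other 4 of their genotype in 8 of 132 groups of 5 livers checked, 6 of them among the 78 groups of members. Chance flags about 1 in 20 such groups. The log2 intensity of Atg7 was 9.98 in KO replicate 1, against 9.88 to 9.89 in the other KO livers, and that of Bnip3l was 12.21 in KO replicate 5, against 12.04 to 12.08. Atg13 read 11.32 in WT replicate 1, against 11.06 to 11.13 in the other WT livers, and Atg2a read 9.62 in WT replicate 4, against 9.49 to 9.51. WT replicate 3 was low for Pik3c3 (8.57, against 8.69 to 8.74) and for Wipi1 (8.55, against 8.71 to 8.77). Of the related genes, Tmem41b read 10.64 in KO replicate 3, against 10.99 to 11.12, and Scarb2 read 11.33 in WT replicate 5, against 10.96 to 11.05.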

How the results depend on the processing

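Over 19 alternatives, 0 to 4 members passed the test. Median centring left 1 (0 higher, 1 lower), repeated quantile normalization gave 4 (3 higher, 1 lower) and the fit without the 3 arrays of widest interquartile range, with 7 arrays and 527 calls over all genes, gave 0. Leaving out single arrays gave 1 to 3 members, with 1 without KO replicate 3. Of the related genes, 4 passed without those 3 arrays, and 7 to 14 without single arrays, against 11. Of the marker genes, 2 passed after repeated quantile normalization, 0 without those 3 arrays and 1 to 2 without single arrays, against 1. Uvrag and Atg10 kept their direction in all 19 alternatives, with differences from -0.34 to -0.25 and from 0.24 to 0.31. The differences of 11 members changed sign under at least 1 alternative. None of the 11 had passed the test, and each was at most 0.06 in size as reported. With the sign changed Atg14 stood at -0.18 without the 3 arrays of widest interquartile range and at -0.10 without KO replicate 5, and Atg2b reached -0.09. The cause of these shifts was not tested. No paired analysis was possible because the labels name no pairs of a KO and a WT mouse. The replicate numbers used here only follow the order of the samples within each genotype. Without detection calls, signal over background is unknown beyond the olfactory receptor level.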
